A study of Mus musculus with 3 samples.

Results

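Among brain nuclei sorted from uninjured C57BL/6 mice, a small set of cortical nuclei carried high levels of transcripts of p53 target genes, and these p53-high cortical nuclei are described here. A nucleus was included when Nfib, a transcription factor expressed in corticospinal neurons, reached at least 400 CPM (counts of a gene's unique molecular identifiers, UMIs, scaled to 1000000 UMIs of the nucleus). In addition Mdm2, Psrc1, Sesn2, Gtse1 and Ccng1 together had to reach at least 250 CPM and 3 UMIs, and the heat shock gene Hspa8 had to stay under 600 CPM. The rule found 215 nuclei, 83 in replicate 1, 41 in replicate 2 and 91 in replicate 3, of 4448 Nfib-high nuclei. Barcodes had to hold 1000 genes or more and no more than 5% UMIs of mitochondrial genes, which 9027 of 17517 barcodes did. They were set against reference cortical nuclei, which had Nfib of at least 400 CPM and Tox of at least 300 CPM and lay under the limits on the 5 genes and on Hspa8. Of these 3630 reference nuclei, 215 were paired with the p53-high nuclei within each library by total UMIs.

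The study sequenced nuclear RNA of single nuclei on the 10x platform. Neurons had been labelled backwards from the lumbar spinal cord, so that the dissection and the nuclear sort aimed at brain cells with an axon in the lumbar cord. All 3 libraries belong to 1 group, labelled as biological replicates of uninjured mice, and both sets of nuclei come from the same libraries. The labels used here give neither sex, age, tracer nor the number of animals in a library. P-values rest on how the difference between the groups within a library varies over these libraries, and this variation may be technical.

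The tumour suppressor p53 is a transcription factor that is kept low by Mdm2, the ubiquitin ligase that marks it for degradation. DNA damage and other stresses release p53, which then activates genes for cell cycle arrest, DNA repair and cell death, and also Mdm2 itself, closing a feedback loop. In neurons, which do not divide, this response is best known after DNA damage and after injury of the axon, where it can lead to apoptosis. p53 binds DNA at pairs of a short palindromic element, the half-site.

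To show this element in genes that the results turn on, the windows from 250 bases before to 50 bases after the annotated start are printed for Cdkn1a, the cell cycle inhibitor that is a classical p53 target, and for 3 genes of the rule. The sequences are those of RefSeq on GRCm38.p6, read 5′ to 3′ on the gene's strand, and capitals mark exact matches to the 10-base p53 half-site consensus, which reads the same on both strands. They lie at chr17:29090729-29091028 (Cdkn1a, plus strand), chr10:117710709-117711008 (Mdm2, minus strand), chr11:40755237-40755536 (Ccng1, minus strand) and chr15:85859696-85859995 (Gtse1, plus strand).
Cdkn1a: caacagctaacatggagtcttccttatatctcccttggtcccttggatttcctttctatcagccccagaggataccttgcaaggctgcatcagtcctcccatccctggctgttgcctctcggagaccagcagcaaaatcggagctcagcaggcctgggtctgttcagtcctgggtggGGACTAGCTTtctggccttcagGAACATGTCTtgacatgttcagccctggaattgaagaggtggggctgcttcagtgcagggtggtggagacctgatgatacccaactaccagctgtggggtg
Mdm2: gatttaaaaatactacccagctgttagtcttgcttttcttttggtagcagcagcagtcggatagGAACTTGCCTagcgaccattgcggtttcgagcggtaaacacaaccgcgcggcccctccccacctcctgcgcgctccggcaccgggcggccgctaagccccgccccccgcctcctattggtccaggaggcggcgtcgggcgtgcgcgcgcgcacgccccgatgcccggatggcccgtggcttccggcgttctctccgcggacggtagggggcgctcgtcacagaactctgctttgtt
Ccng1: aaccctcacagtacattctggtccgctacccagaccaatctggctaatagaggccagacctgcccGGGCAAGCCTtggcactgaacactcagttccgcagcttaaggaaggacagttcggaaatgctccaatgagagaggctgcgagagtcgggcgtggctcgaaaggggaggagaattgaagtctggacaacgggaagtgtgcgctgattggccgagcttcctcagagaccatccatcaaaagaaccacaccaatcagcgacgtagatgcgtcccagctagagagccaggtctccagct
Gtse1: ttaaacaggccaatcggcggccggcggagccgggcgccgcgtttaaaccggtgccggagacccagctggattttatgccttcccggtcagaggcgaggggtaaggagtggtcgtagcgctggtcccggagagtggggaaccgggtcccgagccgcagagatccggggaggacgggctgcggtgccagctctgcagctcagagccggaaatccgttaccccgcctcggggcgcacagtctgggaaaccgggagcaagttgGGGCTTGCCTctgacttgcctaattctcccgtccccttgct
The Cdkn1a window held 2 matches, within 13 bases of each other, and the other windows 1 match each. Over the 55 windows found for 40 of the 5 rule genes and 45 listed p53 targets, 17 windows (30.9%) held at least 1 match. Of all 32851 RefSeq windows of this length, 2745 (8.36%) held one. A pair of matches with a spacer of at most 13 bases was found in 1 of the 55 windows, that of Cdkn1a, and in 24 windows (0.0731%) of all. A match is a description of these letters and does not show binding.

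The libraries held 27435221, 74287112 and 60490064 UMIs for replicates 1, 2 and 3. The p53-high nuclei had median depths of 11087, 17363 and 14548 UMIs in these libraries, below the 13829, 29279 and 20584 UMIs of all reference nuclei. After pairing within 10% of depth, which found a partner for all 215 nuclei, the reference nuclei had medians of 11075, 17332 and 14552 UMIs. At equal depth more genes were detected in the p53-high nuclei, with medians of 3816, 5364 and 4647 genes, against 3413, 4672 and 4343 in their partners. No p53-high nucleus was called a doublet by Scrublet, which marked 126 (1.40%) of the 9027 barcodes. Libraries shared 10, 2 and 8 barcodes among themselves, none of them p53-high.

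The share of p53-high nuclei among Nfib-high nuclei differed between the libraries. Replicate 1 had 7.79%, replicate 2 had 2.67% and replicate 3 had 4.93%, a mean of 5.13% ± 2.56 (SD, n = 3 libraries). Their Clopper-Pearson intervals at 95% ran from 6.25% to 9.56%, from 1.92% to 3.60% and from 3.99% to 6.02%. The intervals cover counting error only, and no interval of 1 library overlapped that of another. Depth also differed between the libraries, and the limit in UMIs and CPM depends on it. When every nucleus was thinned to 5000 UMIs, the shares were 3.70%, 1.17% and 2.79%, in the same order and at a mean of 2.55%. The intervals of these thinned shares ran from 2.59% to 5.11%, from 0.672% to 1.90% and from 2.07% to 3.66%. Those of replicates 1 and 3 then overlapped. Without thinning, nuclei within the same depth limit gave 8.37%, 2.87% and 4.92%.

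Of the 5 genes of the rule, Mdm2 carried most of the sum. The level of Mdm2 was 304, 253 and 286 CPM in the p53-high nuclei of replicates 1, 2 and 3, against 48.6, 35.5 and 43.1 CPM in the depth-matched reference nuclei (CPM of the summed UMIs, scaled by TMM). Mdm2 gave 67.8% of the UMIs of the 5 genes and was present in 211 of the 215 nuclei (98.1%), with up to 28 UMIs in a nucleus. It was found in 89 of the 215 reference nuclei (41.4%). Ccng1, the cyclin G1 gene, followed with 38.0, 69.0 and 59.4 CPM, against 10.8, 25.7 and 16.9 CPM in reference nuclei. Psrc1, which encodes a spindle and microtubule protein, stood at 35.4, 30.3 and 37.7 CPM, against 2.16, 7.34 and 6.92 CPM. Sesn2, encoding the stress protein sestrin 2, reached 32.0, 27.2 and 29.4 CPM, against 3.24, 1.22 and 4.61 CPM. Gtse1, a G2 and S phase gene whose product binds p53, had 13, 15.7 and 15.3 CPM, against 0, 0 and 0.769 CPM. These genes chose the nuclei, so the differences are a description.

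**Figure D1:**
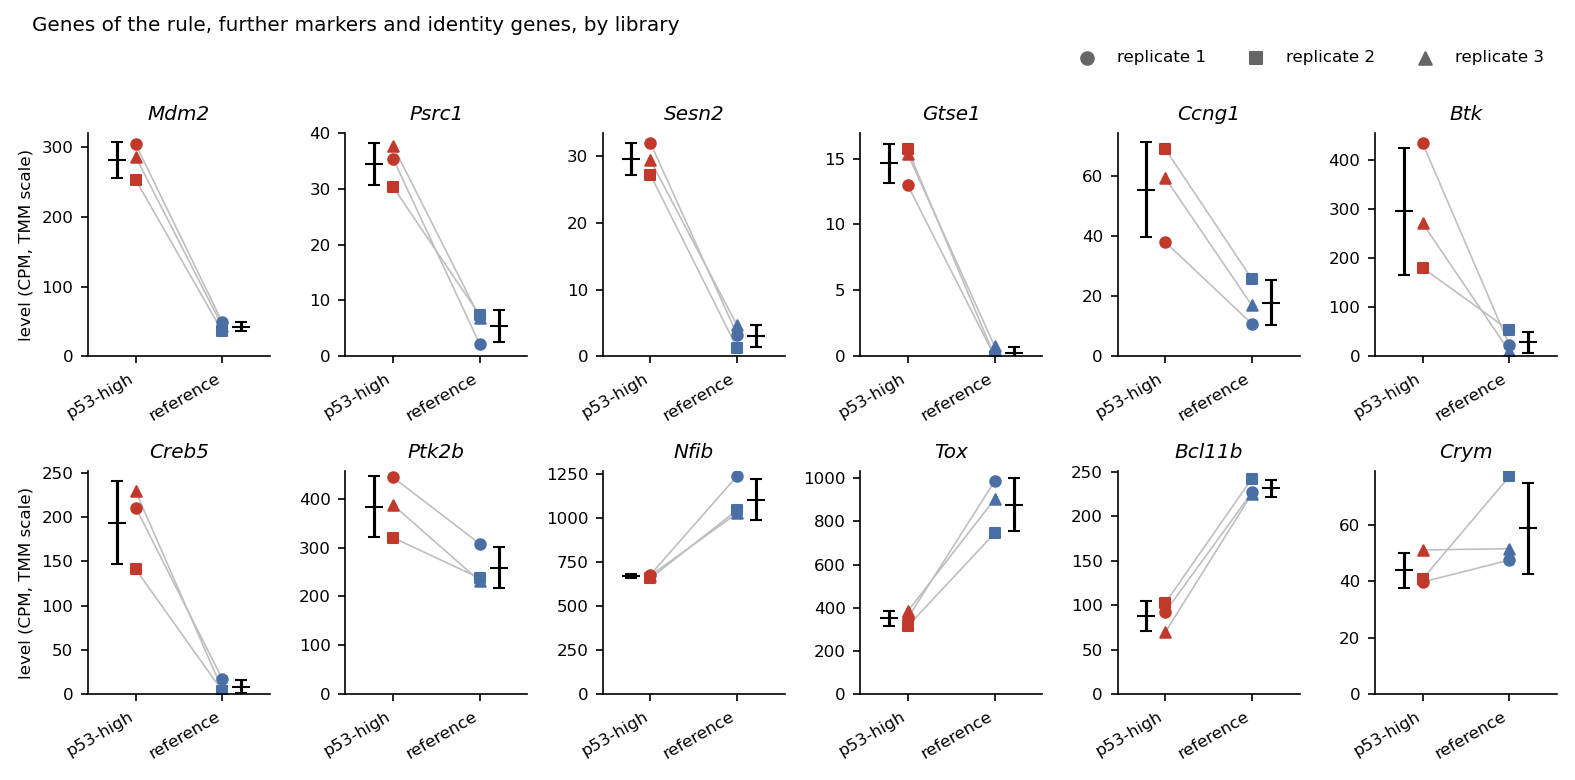
Levels (CPM on the TMM scale, vertical axes starting at 0) of 12 genes in p53-high and depth-matched reference nuclei of replicates 1, 2 and 3; grey lines join the sums of 1 library, and the black bars give the mean and SD over the 3 libraries. The rule fixes the levels of Mdm2, Psrc1, Sesn2, Gtse1, Ccng1 and Nfib in both groups and that of Tox in the reference; Btk and Creb5 lie higher in the p53-high nuclei of every library, Bcl11b lies lower, and the Crym values of the groups overlap.

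The p53-high nuclei were not alike in these 5 genes. Of the 215, 30 (14.0%) had UMIs of 1 of the genes only, 89 of 2 genes, 57 of 3 genes, 31 of 4 genes and 8 (3.72%) of all 5. In the reference nuclei 94 (43.7%) had none of them and 1 had 4. The sum had a median of 420 CPM (5 UMIs) and reached 1402 CPM and 32 UMIs, while 40 nuclei entered with exactly 3 UMIs. Near the limit, the 48 nuclei from 250 to under 300 CPM had Mdm2 at 160.3 ± 15.4 CPM and Creb5 at 94.7 ± 81.2 CPM (SD, n = 3 libraries). The 84 nuclei just outside, from 200 to under 250 CPM with 3 UMIs or more, had Mdm2 at 137 ± 18.2 CPM and Creb5 at 106 ± 52.7 CPM.

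The cortical label was checked against markers of corticospinal and other cells. The 6 corticospinal markers, among them Bcl11b, Fezf2, Crym, Ldb2 and Slc17a7, were all detected in the p53-high nuclei and summed to 890.3 to 916 CPM over the libraries. They summed to 1144 to 1191 CPM in the matched reference nuclei and to 205 to 246 CPM in depth-matched nuclei with Nfib under the limit. Ldb2 alone gave 1717 of the 3022 UMIs of these markers in the p53-high nuclei. Of the markers, 2 were called lower, as described below. Bcl11b averaged 88.2 CPM in p53-high and 231 CPM in reference nuclei, and Ldb2 464 and 735 CPM. Crym, a marker of corticospinal neurons, was at 39.7, 40.8 and 51.1 CPM in p53-high nuclei and at 47.5, 77.1 and 51.5 CPM in reference nuclei (log2 fold change −0.37 ± 0.20 SE, edgeR adjusted p = 0.183). Fezf2, a master regulator of subcerebral neurons, had 25.9, 29.3 and 28.7 CPM, against 36.7, 44.0 and 33.1 CPM (−0.41 ± 0.21, edgeR adjusted p = 0.149). The vesicular glutamate transporter Slc17a7 differed by −0.34 ± 0.15 (edgeR adjusted p = 0.0960). The identity limits themselves were met at a lower level: Nfib averaged 669.8 ± 10.6 CPM in p53-high nuclei and 1103 ± 117 CPM in reference nuclei, and Tox reached 300 CPM in 111 (51.6%) of the p53-high nuclei, against 88.9% of all Nfib-high nuclei under the limits.

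Markers of other cells moved in part with the p53-high nuclei. The 6 endothelial and pericyte markers summed to 142 to 207 CPM in p53-high nuclei, against 32.0 to 75.4 CPM in reference nuclei. Most of this was Tek, with 422 against 178 UMIs, and Pecam1 followed with 97 against 12 UMIs. Rgs5 had 29 against 3 UMIs, Flt1 23 against 2 and Pdgfrb 3 against 1, while Cldn5 was at 0 UMIs in both. The 8 microglia markers summed to 89.6 to 105 CPM, against 50.9 to 68.3 CPM, with Csf1r at 51 against 3 UMIs, C1qa at 1 against 1 UMI and Tmem119 at 0 in both. The 8 hindbrain and midbrain markers summed to 59.2 to 87.3 CPM, against 22.8 to 30.2 CPM, far from the 1239 to 1655 CPM of the matched Nfib-low nuclei. Hypothalamic markers summed to 71.1 to 129.7 CPM, against 41.5 to 88.8 CPM, oligodendrocyte markers to 60.7 to 78.5 CPM, against 52.8 to 62.6 CPM, and precursor markers to 5.69 to 7.96 CPM, against 0 to 4.71 CPM. Astrocyte markers were lower, at 54.8 to 69.4 CPM, against 111 to 123 CPM. The 4 B cell markers had 10 against 6 UMIs, the 5 inhibitory markers 17 against 13 UMIs and the red nucleus markers 9 against 8 UMIs. The part of these markers in the results below was not tested.

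The first question was whether the 5 genes rise together in the same nuclei, which the rule does not force for a gene that is left out of the choice. The rule was itself set with earlier results of these data known. The values therefore describe how far the 5 genes rise together and are no independent test of it. Each gene was therefore compared in nuclei chosen by the other 4 genes at the same limits, against their own depth-matched reference nuclei. All 5 held-out genes were higher, beside 9.51% of all genes tested without Mdm2, 17.0% without Psrc1, 14.7% without Sesn2, 15.4% without Gtse1 and 18% without Ccng1. In nuclei chosen without Psrc1, Psrc1 was at 27.2, 23.6 and 30.9 CPM, against 3.62, 7.33 and 7.35 CPM, a log2 fold change of 2.16 ± 0.38 (SE; edgeR quasi-likelihood test, adjusted p = 0.00019). Sesn2 had 28.2, 20.1 and 25.2 CPM, against 3.51, 1.38 and 5.05 CPM (2.76 ± 0.41, edgeR adjusted p = 0.00015). Gtse1 had 9.87, 15.7 and 12.1 CPM, against 0, 0 and 0.808 CPM, that is 44 against 1 UMI (edgeR adjusted p = 0.000208). Mdm2 could be held out in few nuclei, because without it 9, 3 and 15 nuclei reached the limit. In these it had 347, 265 and 232 CPM, against 34.6, 0 and 49.9 CPM (2.92 ± 0.45, edgeR adjusted p = 2.4e-08). Ccng1 was the weakest, with 21.2, 52.3 and 50.04 CPM, against 12.6, 26.9 and 17 CPM (1.16 ± 0.27, edgeR adjusted p = 0.00253). Without replicate 3 its log2 fold change was 0.89 and the call was lost (edgeR adjusted p = 0.0960).

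Across the transcriptome the p53-high nuclei differed widely from their partners. Of 9614 genes tested, 1514 (15.7%) were higher and 1344 (14.0%) lower, where a call needs an edgeR adjusted p under 0.05 and a log2 fold change of 0.5 or more in size, as it does below. The median log2 fold change of all genes was −0.01. The balance of directions depended on the scaling. TMM gave the p53-high sums factors of 1.09 to 1.11 and the reference sums factors of 0.873 to 0.930. Scaling to total counts instead, an alternative added after the data were seen, moved the median of all genes to 0.26 and gave 2565 (26.7%) higher and 658 (6.84%) lower genes. The share of calls that were higher was then 79.6%, against 53% with TMM. All 1514 genes called higher remained higher, and 658 of the 1344 genes called lower remained called, so small decreases rest on the scaling. With a limit of 1 on the log2 scale, 934 genes were higher and 447 lower.

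Most of the tested p53 target genes outside the rule were higher. Of 45 listed genes, 31 had enough counts to be tested, and 22 of these were higher and 0 lower, beside 15.7% and 14.0% of all genes. Their median log2 fold change was 1.47, also with the 1 gene without reference UMIs at its bound, beside −0.01 for all genes. The 14 untested targets had at most 39 UMIs in either group. A gene can enter the test through the group in which it is high, and the list was written with earlier results of these data known.

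Among the targets with a role in arrest and feedback, Cdkn1a, which encodes the CDK inhibitor p21, had 17.3, 27.2 and 38.3 CPM in p53-high nuclei, against 2.16, 0 and 3.08 CPM in reference nuclei (log2 fold change 3.81 ± 0.48 SE, edgeR adjusted p = 1.42e-05). UMIs of Cdkn1a were found in 73 p53-high nuclei (34.0%) and in 5 reference nuclei (2.33%). The antiproliferative Btg2 had 25.9, 50.2 and 29.4 CPM, against 1.08, 11.0 and 6.92 CPM. Zmat3, an RNA-binding zinc finger protein, had 89.9, 116 and 110.5 CPM, against 56.1, 42.8 and 38.4 CPM. Ckap2, a cytoskeleton-associated protein gene, had 11.2, 14.6 and 14.7 CPM, and its 50 UMIs stood against 0 in the reference nuclei, where 0 of 215 allows a share of up to 1.40% of nuclei. It was at least 13.8-fold higher, against a floor of 3 counts over the group. In none of these did the libraries of the 2 groups overlap, and how often this holds over all genes was not counted. Ppm1d, the phosphatase that switches p53 off again, rose by less, at 50.1, 36.6 and 36.4 CPM, against 24.8, 14.7 and 28.4 CPM (0.80 ± 0.23, edgeR adjusted p = 0.0141), and lost its call without replicate 1 (0.69, edgeR adjusted p = 0.13).

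Targets that act in cell death rose too. Apaf1, the scaffold of the apoptosome, had 165, 116 and 179 CPM, against 27.0, 17.1 and 21.5 CPM (2.82 ± 0.18, edgeR adjusted p = 2.92e-08), and its UMIs were found in 73.0% against 19.5% of the nuclei. Trp53inp1, which encodes a p53-induced nuclear protein, had 93.3, 66.9 and 92.0 CPM, against 13, 11.0 and 17.7 CPM (2.57 ± 0.22). Aen, an apoptosis-enhancing nuclease, had 41.5, 34.5 and 44.7 CPM, against 5.40, 2.45 and 4.61 CPM (3.23 ± 0.32). Bbc3, encoding the BH3-only protein Puma, had 19.0, 13.6 and 23.6 CPM, against 0, 6.12 and 3.84 CPM (2.53 ± 0.52). Pidd1, a death domain protein, had 12.1, 10.5 and 17.2 CPM, against 2.16, 0 and 1.54 CPM. Bax, the pore-forming effector, rose by less, with 44.9, 39.8 and 38.3 CPM, against 25.9, 29.4 and 17.7 CPM (0.79 ± 0.22, edgeR adjusted p = 0.0113). Its call was lost without replicate 1 (0.78, edgeR adjusted p = 0.069) and without replicate 3 (0.62, edgeR adjusted p = 0.16).

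DNA repair and metabolic targets followed the same direction. Polk, a translesion DNA polymerase, had 103, 92.1 and 132 CPM, against 15.1, 9.79 and 23.1 CPM (2.73 ± 0.21, edgeR adjusted p = 1.14e-07). Ercc5 and Ddb2, of nucleotide excision repair, differed by 1.47 ± 0.20 and 1.23 ± 0.18. UMIs of Ercc5 were found in 61.4% against 29.8% of the nuclei, and those of Ddb2 in 38.6% against 34.4%. Of the 320 p53-high UMIs of Ddb2, 31.9% lay in 5 nuclei, and 1 reference nucleus held 27 of the 114 reference UMIs. Dglucy, a mitochondrial D-glutamate cyclase, had 93.3, 53.3 and 91.3 CPM, against 13, 6.12 and 12.3 CPM (2.91 ± 0.23). Cpt1c, the neuronal carnitine palmitoyltransferase, had 153, 188 and 228 CPM, against 47.5, 75.9 and 70.7 CPM (1.57 ± 0.15). The other targets called higher were Pmm1, Klhl26, Ei24, Abhd4, Ephx1 and Rps27l, with log2 fold changes from 1.07 (Ei24) to 2.26 (Ephx1). Abhd4 and Rps27l lost their calls without replicate 3 (0.94 and 1.74). A p53-high nucleus had UMIs of a median of 12, 15 and 16 of the 45 targets in replicates 1, 2 and 3, against 5, 9 and 7 in a reference nucleus. The 45 targets summed to 1802, 1763 and 2092 CPM, against 591, 643 and 652 CPM.

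**Figure D2:**
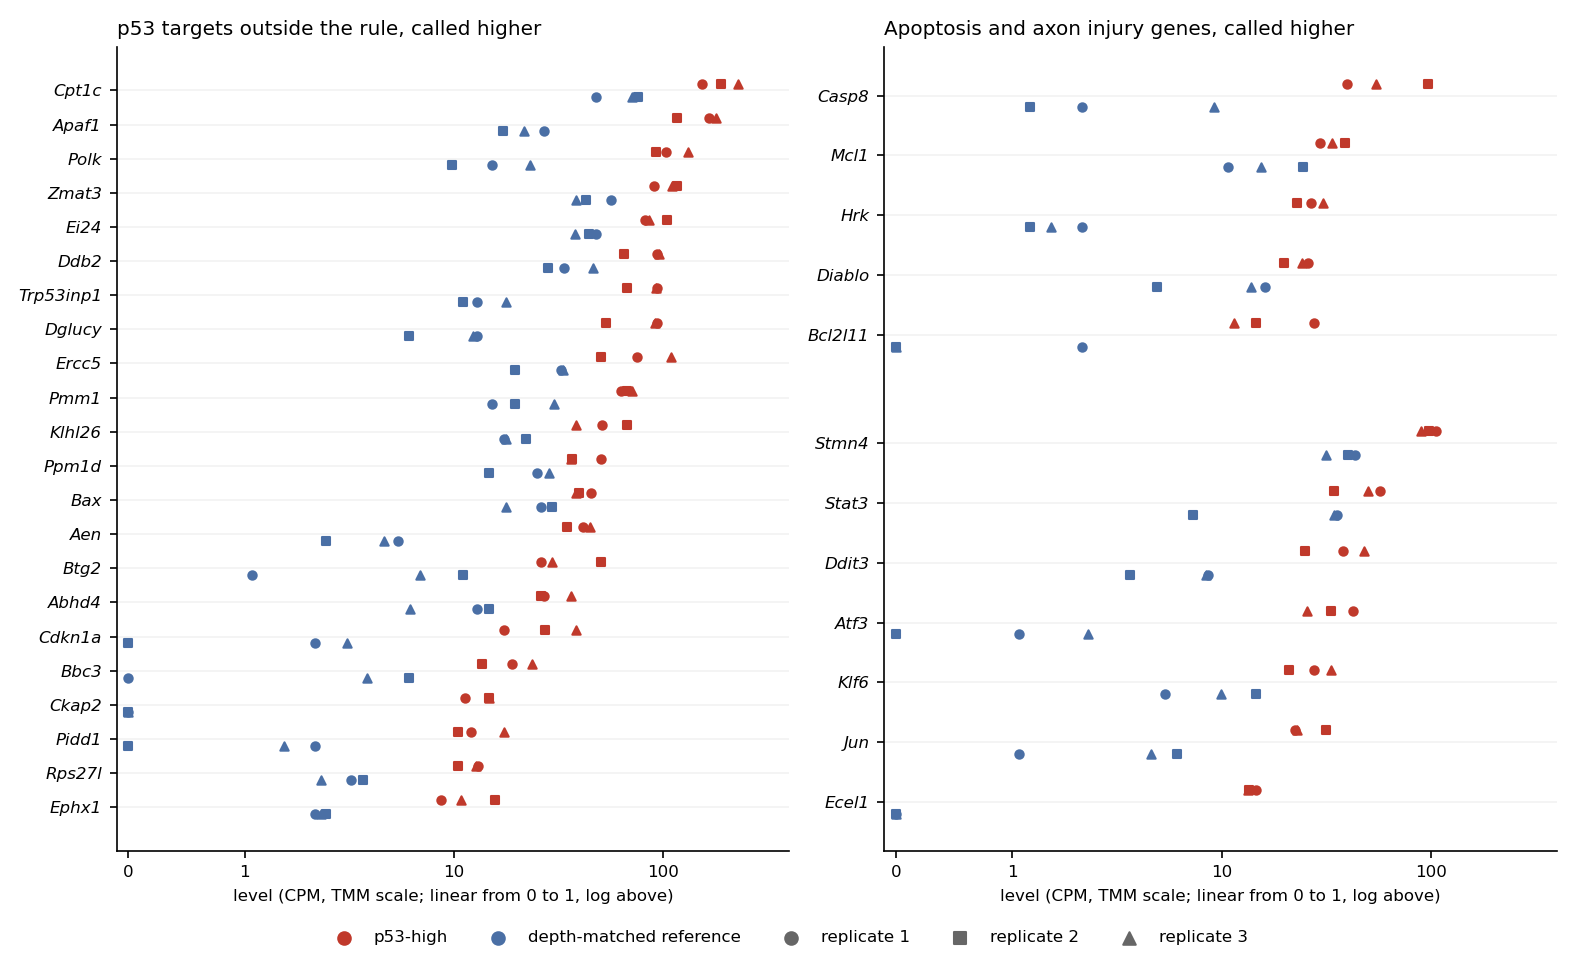
Levels by library (CPM on the TMM scale; axis linear from 0 to 1 and logarithmic above) of the 22 p53 targets outside the rule and of 5 apoptosis and 7 axon injury genes that were called higher; red marks are p53-high nuclei, blue marks depth-matched reference nuclei, and the shape gives the replicate. In each row the p53-high sum of a library lies to the right of the reference sum of the same library, with Cdkn1a at 17.3 to 38.3 CPM against 0 to 3.08 CPM.

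Trp53, the gene of p53 itself, had 14.7, 27.2 and 16 CPM in p53-high nuclei, against 13, 11.0 and 8.46 CPM in reference nuclei. This was 0.80 ± 0.34 on the log2 scale and did not pass (edgeR adjusted p = 0.0809), although every library was higher, and with total-count scaling the value was 1.07 with an edgeR adjusted p of 0.0210. Of 14 tested regulators among 20 listed, 3 were higher and 0 lower, beside 15.7% and 14.0% of all genes, at a median of 0.13. These were the deacetylase gene Sirt1 (1.03 ± 0.27), the ubiquitin ligase gene Rchy1 (0.53 ± 0.18) and the methyltransferase gene Setd7 (0.51 ± 0.16). All 3 lost their calls without replicate 1 and without replicate 3, where their edgeR adjusted p lay between 0.055 and 0.13. Rchy1 lost its call without replicate 2 as well (0.52, edgeR adjusted p = 0.067). Of 18 tested genes of DNA damage sensing and repair, 2 were higher and 3 lower, beside 15.7% and 14.0% of all genes, shares near those of all genes. Rad50, of the double-strand break sensor, rose by 1.10 ± 0.24, and Brca2, of homologous recombination, by 1.00 ± 0.32. Prkdc, the catalytic subunit of DNA-PK, fell by 1.01 on the log2 scale, with 25.1, 28.2 and 28.1 CPM, against 59.4, 41.6 and 61.5 CPM. Polb and Top2b were near the fold limit, at −0.50 and −0.53, and their calls and that of Brca2 were lost without replicate 1 (−0.31, −0.54 and 0.61) and without replicate 3 (−0.44, −0.32 and 1.13).

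Genes of cell division were mostly too low to test. Only 3 of 28 listed genes passed the filter, and the others had at most 48 UMIs in the p53-high nuclei. Among these, Ccnb1 had 48 against 20 UMIs, Cdk4 42 against 21, Mki67 31 against 15 and Mcm6 27 against 3. Kif11 had 9 against 16 UMIs, Ccne1 6 against 11, Top2a 0 against 1 and Cdk1 0 against 0. Without replicate 2, 8 listed genes were tested and 4 were higher, beside 1894 of all 10480 genes. In the main fit Cenpf, a kinetochore protein gene, had 156, 245 and 123 CPM in p53-high nuclei, against 19.4, 23.2 and 13.8 CPM (3.19 ± 0.18, edgeR adjusted p = 7.24e-09). Its 608 UMIs came from 84 nuclei, and 79 of them from 1 nucleus. Cdk6, a G1 kinase gene, had 64.8, 46.0 and 46.0 CPM, against 20.5, 8.56 and 10.0 CPM (2.02 ± 0.24). Of 12 listed genes of CDK inhibitors and senescence only 2 were tested, Glb1 and Lmnb1. Both were lower, at −0.95 and −0.92, beside 14.0% of all genes. Neither was called with total-count scaling (−0.67 and −0.65), with DESeq2, without the replicate block or after thinning to 5000 UMIs (−0.82 and −0.41). Both calls were lost without replicate 1 (−0.87 and −1.24) and without replicate 3 (−0.59 and −0.72), and that of Lmnb1 also without replicate 2 (−0.83).

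Apoptosis genes outside the p53 target list were also higher in part. Of 19 listed genes 11 were tested, and 6 were higher and 0 lower, beside 15.7% and 14.0% of all genes, with a median of 0.99. Hrk, a neuronal BH3-only gene, had 26.8, 23.0 and 30.7 CPM, against 2.16, 1.22 and 1.54 CPM (3.97 ± 0.45, edgeR adjusted p = 4.46e-06), in 30.2% against 1.86% of the nuclei. Bcl2l11, which encodes the BH3-only protein Bim, had 64 against 2 UMIs, a ratio of 26.5 (95% counting interval 7.04 to 223). Mcl1, which protects from apoptosis, rose as well, with 29.4, 38.7 and 33.8 CPM, against 10.8, 24.5 and 15.4 CPM (1.04 ± 0.25). Diablo, which encodes an inhibitor of the caspase inhibitors, differed by 0.99 ± 0.32. Without replicate 3 the calls of Mcl1 (0.99) and Diablo (1.14) were lost, and without replicates 1 or 2 that of Diablo (1.16 and 0.76). Casp8, the initiator caspase, had 39.7, 97.3 and 54.9 CPM, against 2.16, 1.22 and 9.23 CPM, but its 225 UMIs lay in 21 nuclei, 39.6% of them in 1 nucleus and 79.6% in 5, so its level rests on few nuclei.

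Part of the genes of the response to axon injury were higher in p53-high nuclei of these mice, which are labelled uninjured. Of 29 listed genes 15 were tested, and 7 were higher and 0 lower, beside 15.7% and 14.0% of all genes, with a median of 0.52. Atf3, a transcription factor induced in axotomised neurons, had 42.3, 33.5 and 25.5 CPM, against 1.08, 0 and 2.31 CPM (4.53 ± 0.50, edgeR adjusted p = 3.51e-06), and was found in 29.3% against 0.930% of the nuclei. Ecel1, an endopeptidase gene that is induced by nerve injury, had 14.7, 13.6 and 13.4 CPM in p53-high nuclei and 0 UMIs in the reference nuclei, at least 14.1-fold higher. Jun, of the AP-1 complex, had 22.5, 31.4 and 23.0 CPM, against 1.08, 6.12 and 4.61 CPM (2.66 ± 0.40), and Ddit3, encoding the stress factor CHOP, had 38.0, 25.1 and 47.9 CPM, against 8.63, 3.67 and 8.46 CPM (2.41 ± 0.30). Klf6, a transcription factor linked to axon growth (1.49 ± 0.34), the stathmin gene Stmn4 (1.37 ± 0.17) and Stat3 (0.85 ± 0.25) completed the set. The call of Klf6 was lost without replicate 3 (1.33) and that of Stat3 without replicate 1 (0.95).

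Of 11 tested heat shock genes, 3 were higher and 0 lower, beside 15.7% and 14.0% of all genes, at a median of 0.15. Hspa9, the mitochondrial chaperone, had 135, 151 and 150.1 CPM, against 64.8, 75.9 and 80.7 CPM (0.97 ± 0.14, edgeR adjusted p = 6.74e-05). Hsp90aa1 (0.58) and Hspa5 (0.69) lost their calls without replicate 1 (0.42 and 0.59) and without replicate 3 (0.58 and 0.73), and Hspa5 also without replicate 2 (0.78). The rule limits Hspa8 and so bears on this list. Of 11 tested immediate early genes, 1 was higher and 2 were lower, beside 15.7% and 14.0% of all genes. Jund was higher (1.47 ± 0.25), and the orphan receptor gene Nr4a1 (−1.05 ± 0.21) and the scaffold gene Homer1 (−0.57 ± 0.12) were lower, at a median of −0.14 that turned to 0.13 with total-count scaling. Homer1 lost its call without replicate 3 (−0.48). Of 4 tested interferon genes, 0 were higher and 1 was lower, beside 15.7% and 14.0% of all genes, at a median of −0.70.

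Btk, Creb5 and Ptk2b had been named as markers of these nuclei from the same data, and their values are a description. Btk, a Tec family kinase best known from B cells and myeloid cells, had 434, 179.9 and 271 CPM in p53-high nuclei, against 22.7, 52.6 and 10.0 CPM in reference nuclei. It was found in 45.6% against 11.6% of the nuclei, while the 4 B cell markers had 10 against 6 UMIs in all. Of the 8 microglia markers, which are myeloid, Csf1r had 51 against 3 UMIs and Itgam 6 against 0, and all 8 had 326 against 197 UMIs; their part in the Btk level was not tested. Creb5, a CREB family transcription factor, had 211, 141 and 229 CPM, against 17.3, 3.67 and 5.38 CPM, in 71.2% against 5.58% of the nuclei. Ptk2b, the calcium-dependent kinase Pyk2, was common to both groups, with 443, 320.1 and 387 CPM, against 308, 237 and 231 CPM. Btk lies on chromosome X (134542336 to 134583570, minus strand), Creb5 on chromosome 6 (53287270 to 53700376, plus strand) and Ptk2b on chromosome 14 (66153257 to 66281052, minus strand) of GRCm38, and no other gene of the annotation overlaps them.

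Genes of the families of Btk, Creb5 and Ptk2b were called in both directions. Of 16 tested genes of focal adhesion and of Src and Tec kinases, 4 were higher and 1 lower, beside 15.7% and 14.0% of all genes. Src had 69.1, 45.0 and 47.3 CPM, against 33.5, 25.7 and 18.5 CPM (1.08 ± 0.21, edgeR adjusted p = 0.000756), and the integrin linker Tln1 rose by 1.60 ± 0.27. The integrin gene Itga9 had 61.3, 9.41 and 23.6 CPM, against 1.08, 0 and 3.08 CPM, and Itga5 differed by 0.99, a call that was lost without replicate 2 (0.75) and without replicate 3 (0.84). Ptk2, the focal adhesion kinase and nearest relative of Ptk2b, was lower instead, with 548, 417 and 462 CPM, against 904, 634 and 751 CPM (−0.68 ± 0.10, edgeR adjusted p = 7.14e-05; −0.40 with total-count scaling). Of 12 tested CREB and ATF genes, 3 were higher (Creb3l1, Crem and Creb3) and 3 lower (Creb1, Crtc3 and Atf7), beside 15.7% and 14.0% of all genes, and the median of −0.27 was 0.01 with total-count scaling. Creb1, the best known member, had 32.8, 39.8 and 42.2 CPM, against 73.4, 57.5 and 62.3 CPM (−0.74 ± 0.20), and it lost its call without replicate 1 (−0.56). Creb3 lost its call without replicates 1 or 3 (0.80 and 0.82) and Crtc3 without replicate 3 (−0.66). Tln1 and Creb3 overlap each other on opposite strands, and whether the counting used strand is not stated in the labels or file headers.

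**Figure D3:**
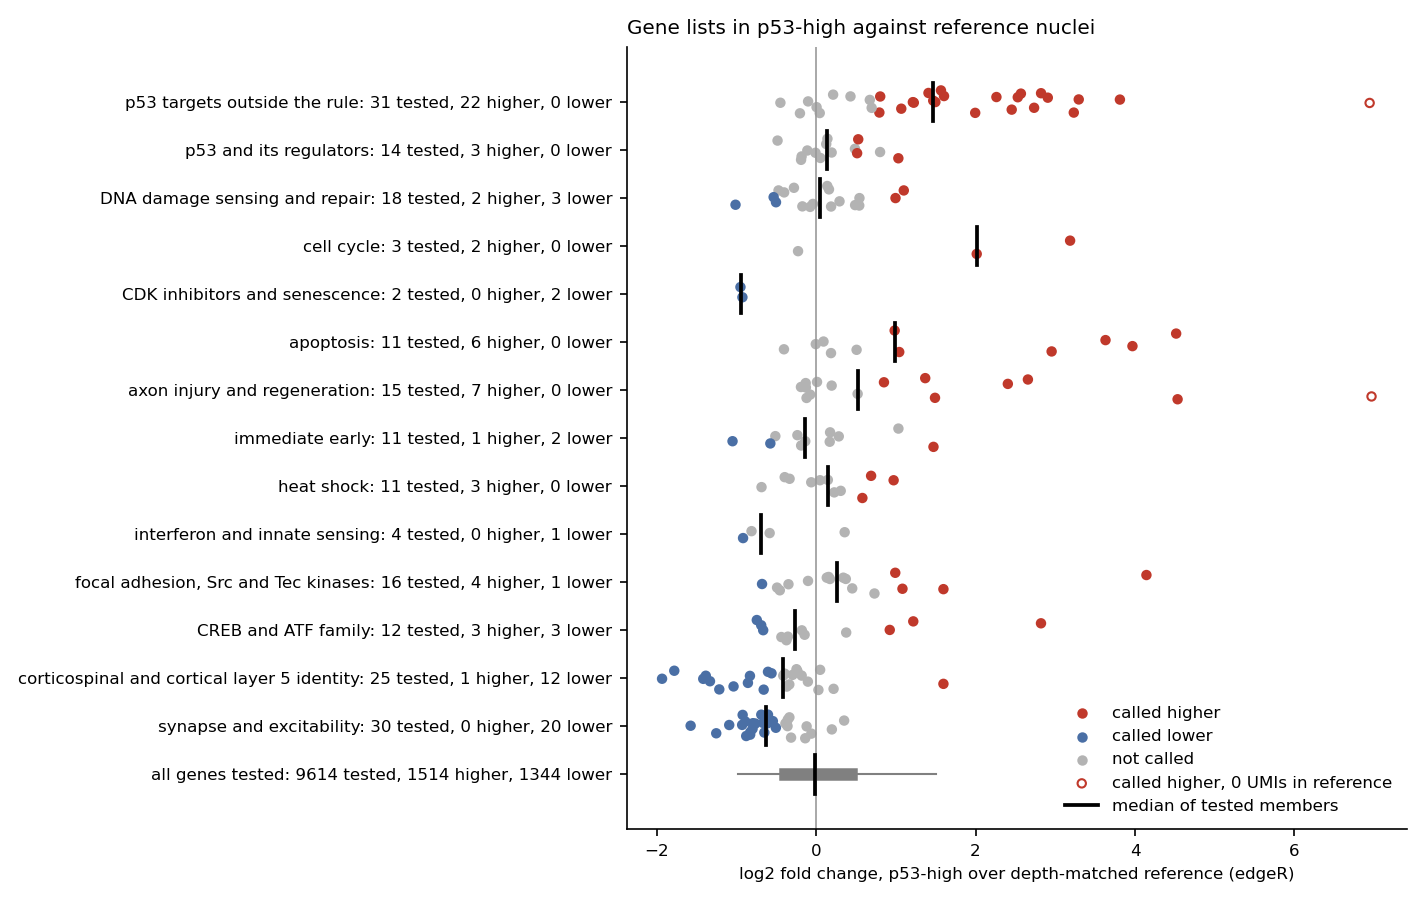
Log2 fold change (p53-high over depth-matched reference, edgeR, TMM) of the tested members of 14 gene lists; red points were called higher, blue lower and grey not called, open points had 0 reference UMIs so that their fitted value depends on the prior count, and black lines are medians. In the bottom row the thick bar spans the middle 50% and the thin line the middle 90% of all 9614 genes; the p53 targets lie at a median of 1.47 and the synaptic genes at −0.63.

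Part of the transcripts of cortical identity and of synapses were lower. Of 25 tested genes of corticospinal and layer 5 identity, 12 were lower and 1 higher, beside 14.0% and 15.7% of all genes, at a median of −0.41. Bcl11b (Ctip2), the factor of subcerebral projection neurons, had 92.5, 103 and 69.6 CPM, against 227, 242 and 225 CPM (−1.42 ± 0.14, edgeR adjusted p = 1.22e-06). Etv1, a layer 5 factor, had 39.7, 55.4 and 38.3 CPM, against 129.5, 137 and 181 CPM (−1.78 ± 0.18). Mef2c, which acts in activity-dependent transcription, had 341, 436 and 377 CPM, against 1018, 865 and 1010.3 CPM (−1.33 ± 0.12), and Nfix fell to 36.3, 51.3 and 37.7 CPM, against 110.1, 126 and 91.5 CPM. Camk2a, the kinase of excitatory synapses, had 308, 424 and 296 CPM, against 777, 799 and 776 CPM (−1.21 ± 0.12). Neurod6, Grin2a, Cntn6 and Ldb2 were lower by 1.93 to 0.66 on the log2 scale. The formin gene Diaph3 was higher, at 62.2, 19.9 and 57.5 CPM, against 20.5, 6.12 and 19.2 CPM. Calls of Neurod2 (−0.86), Foxp2 (−0.60) and Crim1 (−0.56) were each lost when a library was left out, for Neurod2 whichever it was (−0.89, −0.67 and −1.0), for Foxp2 without replicate 3 (−0.19) and for Crim1 without replicate 2 (−0.41). As given above, Fezf2, Crym and Slc17a7 were not called in the main fit, and Slc17a7 was called lower at a rule sum of 400 CPM or more.

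Of 30 tested genes of synapse and excitability, 20 were lower and 0 higher, beside 14.0% and 15.7% of all genes, at a median of −0.63. Scn1a, a voltage-gated sodium channel gene, had 149, 167 and 148 CPM, against 482, 417 and 474 CPM (−1.57 ± 0.12, edgeR adjusted p = 1.32e-07), and its UMIs were present in 69.8% against 98.1% of the nuclei. Syt1, the calcium sensor of vesicle release, had 1426, 1621 and 1193 CPM, against 3705, 2963 and 3383 CPM (−1.25 ± 0.11). The AMPA receptor gene Gria2 (−0.93), Nlgn1 (−0.92), Grin2b (−0.89), Gria4 (−0.88), Gria1 (−0.83) and Snap25 (−0.76) were lower in every library. With total-count scaling, where 6.84% of all genes were lower, 10 synaptic genes remained lower and 1 was higher, and 8 identity genes remained lower, with Scn1a at −1.30, Syt1 at −0.98 and Bcl11b at −1.14. Kcna2, Scn8a and Grin1, called at −0.83, −0.50 and −0.60, lost their calls when a library was left out. Kcna2 (−0.92) and Scn8a (−0.42) did so without replicate 1, and Kcna2 (−0.38) and Grin1 (−0.47) without replicate 3. A lower share of the UMIs of a nucleus cannot be told apart from a rise of other transcripts.

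Outside the lists, the genes with the highest fold were nearly silent in reference nuclei. Nox4, an NADPH oxidase that makes hydrogen peroxide, had 80.4, 56.5 and 109 CPM in p53-high nuclei, against 1.08, 1.22 and 0.769 CPM, that is 318 against 3 UMIs (ratio 87.7, 95% counting interval 29.7 to 428). It was found in 44.7% against 1.40% of the nuclei. Tshr, the thyrotropin receptor gene, had 63.9, 29.3 and 72.2 CPM, with 215 against 2 UMIs, and Ndrg1, a stress-responsive gene, 69.1, 42.9 and 65.1 CPM, with 223 against 3 UMIs. Rgs12, a regulator of G protein signalling, had 48.4, 72.2 and 68.3 CPM, against 2.16, 0 and 1.54 CPM (5.47 ± 0.40, edgeR adjusted p = 9.05e-08). Sytl5, Pde3a and D7Ertd443e had 120 against 1, 78 against 1 and 151 against 2 UMIs. The non-coding genes Gm44992 and 4930554C24Rik had 93 and 87 UMIs against 0, at least 25.7-fold and 24.0-fold higher, and Gm11351 had 153 against 3 UMIs. All 10 genes were picked for their high fold and for the same direction in every library. A low reference level goes with that choice, so the levels, the interval and the adjusted p are a description.

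The genes with the lowest fold outside the lists kept a measurable level. Mgat4c, a glycosyltransferase gene, had 122, 133 and 103 CPM, against 546, 374 and 409 CPM (−1.89 ± 0.14, edgeR adjusted p = 8.8e-08). Fras1, an extracellular matrix gene, had 89.0, 80.5 and 53.6 CPM, against 289, 272 and 219.9 CPM (−1.83 ± 0.14), and the natriuretic peptide receptor gene Npr3 21.6, 30.3 and 19.8 CPM, against 87.4, 77.1 and 82.3 CPM (−1.82 ± 0.21). Ugt8a, Rspo2, Kcnh3, Slain1 and the non-coding Gm42707, Gm6260 and Gm553 were lower by 2.10 to 1.82 on the log2 scale. All 10 genes were picked for their low fold and for the same direction in every library, so the distance between the groups is a description.

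The 10 genes with the highest fold outside the lists were spread unevenly over the p53-high nuclei. At least 3 of them were found in 105 nuclei (48.8%), with up to 9 in a nucleus, and none in 56 nuclei (26.0%). In the reference nuclei 199 (92.6%) had none and no nucleus had 3. These genes were picked for their difference, so the counts only describe how it is spread. Of the 100 nuclei with a rule sum from 250 to under 400 CPM, 36 (36.0%) had at least 3, and of the 115 nuclei at 400 CPM or more, 69 (60.0%) did. Replicate 2 had the fewest, 12 of 41 nuclei (29.3%), against 46 of 83 (55.4%) in replicate 1 and 47 of 91 (51.6%) in replicate 3.

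Levels changed in steps over the rule sum, also below the limit, though little between the lowest bin and the next for Btk, Bcl11b and Scn1a. In the 2086 Nfib-high nuclei under 50 CPM, Apaf1 stood at 18.7 ± 2.1 CPM, Polk at 12.5 ± 2.3 CPM, Creb5 at 5.3 ± 4.3 CPM and Btk at 42.1 ± 34.8 CPM (SD, n = 3 libraries; CPM of the summed UMIs). In the 388 nuclei from 150 to under 250 CPM, which are not p53-high by the rule, Apaf1 had 50.9 ± 22.7 CPM, Polk 46.7 ± 16.1 CPM, Creb5 56.8 ± 21.6 CPM and Btk 114.5 ± 57.4 CPM. At 400 CPM or more, Apaf1 reached 237 ± 7.0 CPM, Polk 160.3 ± 18.1 CPM, Creb5 307 ± 26.2 CPM and Btk 451 ± 144 CPM. Bcl11b ran the other way, with 222 ± 21.7 CPM under 50 CPM, 177 ± 6.6 CPM from 150 to under 250 CPM, 126 ± 8.1 CPM from 250 to under 400 CPM and 66.3 ± 18.2 CPM at 400 CPM or more. Scn1a followed it, at 422 ± 32.4, 357 ± 33.5, 223 ± 9.3 and 110.3 ± 10.9 CPM in the same bins. In the 1610 nuclei from 50 to under 150 CPM, Btk had 40.1 ± 33.7 CPM, Bcl11b 212 ± 12.5 CPM and Scn1a 413 ± 36.5 CPM. Apaf1 had 25.6 ± 8.4 CPM, Polk 16.4 ± 2.8 CPM and Creb5 15.3 ± 13.2 CPM there. Crym stayed between 45.2 and 53 CPM in all 5 bins. The highest bin held 45, 16 and 54 nuclei of the libraries. The rule sum and the levels share the depth of a nucleus, so the steps are a description.

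**Figure D4:**
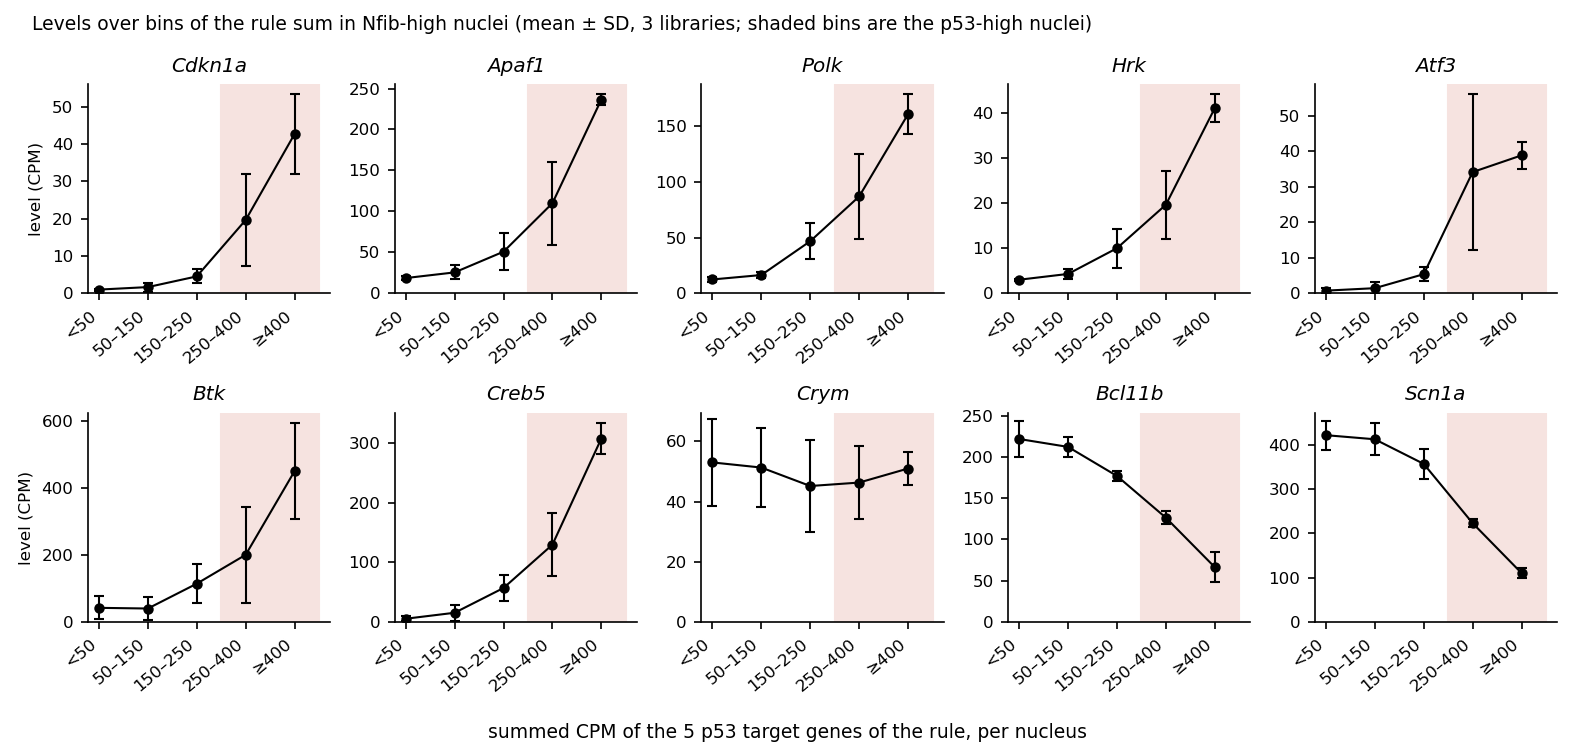
Levels (CPM of summed UMIs, vertical axes starting at 0) of 10 genes in Nfib-high nuclei binned by the summed CPM of the 5 rule genes; points and bars are the mean and SD over 3 libraries, and the shaded bins are the p53-high nuclei. Cdkn1a, Apaf1, Polk, Hrk, Atf3, Btk and Creb5 are highest at 400 CPM or more, Bcl11b and Scn1a lowest (66.3 and 110.3 CPM), and Crym stays between 45.2 and 53 CPM.

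Because Tox was required only of the reference nuclei, the comparison was repeated with the 111 p53-high nuclei that reached 300 CPM of Tox, so that both groups met the same identity limits. Fewer genes could be tested, 6458, of which 667 (10.3%) were higher and 634 (9.82%) lower. Of the 1514 genes called higher with all p53-high nuclei, 901 were tested, 588 were called and 900 had the same sign. Of the 1344 lower genes, 1199 were tested, 619 were called and 1198 had the same sign. The 111 nuclei are part of the nuclei that gave the first calls, so the shared sign is a description and no independent test. Among p53 targets outside the rule 12 of 18 tested were higher and 0 lower, with Apaf1 at 2.95, Polk at 2.93, Dglucy at 2.83 and Trp53inp1 at 2.86 on the log2 scale. Other targets had 0.90 (Klhl26), 0.95 (Zmat3) and 0.87 (Ei24), against 1.41, 1.21 and 1.07 with all p53-high nuclei, and Ppm1d (0.52) and Bax (0.79) were not called. Btk, given as a description, was at 2.43. Among genes that were lower, Bcl11b was at −1.19, Etv1 at −1.23, Scn1a at −1.06, Syt1 at −0.98 and Atf7 at −0.67, and 7 of 22 identity genes and 14 of 28 synaptic genes were lower. Of 5 tested apoptosis genes none was called higher or lower, and Hrk, Bcl2l11 and Casp8 were not among them because of their counts.

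p53-high nuclei were not limited to Nfib-high nuclei. By the same limits 205 nuclei with Nfib under 400 CPM were p53-high, 5.02% of such nuclei in replicate 1, 2.84% in replicate 2 and 5.13% in replicate 3. They carried more cortical transcripts than the other Nfib-low nuclei: Crym averaged 42.7 ± 7.3 CPM in them and 6.4 ± 2.8 CPM in other Nfib-low nuclei, Fezf2 was higher by 1.74 on the log2 scale, and the potassium channel gene Kcnc2 averaged 117 ± 26.7 CPM, against 598 ± 63.2 CPM. Identity and the p53 targets cannot be told apart in that comparison. Within it 4086 (40.3%) of 10137 genes were called, 2238 (22.1%) higher and 1848 (18.2%) lower, with 26 of 33 tested p53 targets outside the rule higher and 1 lower at a median of 1.49. Cdkn1a differed by 5.76 there, Apaf1 by 2.68, Polk by 2.56, Creb5 by 3.91, Btk by 4.77 and Ptk2b by 3.39 on the log2 scale. The interaction, which tests whether a p53-high difference is unlike between Nfib-high and Nfib-low nuclei, called 1121 (9.74%) of 11506 genes, 509 (4.42%) with a more positive and 612 (5.32%) with a more negative difference in Nfib-high nuclei. Of the p53 targets outside the rule that were called in Nfib-high nuclei, none was called in the interaction.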

How the data were processed

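Brain nuclei of uninjured C57BL/6 mice were sequenced in 3 libraries of 1 group on the 10x platform. The deposited matrices hold UMI counts, whole numbers for each gene in each barcode, and the authors produced them with Cell Ranger. Per the file headers its version was 6.1.1, and per the submitters' processing notes it was 7.0.1 with the mm10 build, a difference that could not be settled. Whether intronic reads and strand were used is not stated in these sources, and 51 of the 128 named genes overlap another annotated gene.

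The p53-high nuclei and the gene lists were chosen with earlier results of these data known. Each p53-high nucleus was paired within its library, without replacement, with the reference nucleus nearest in total UMIs, within 10%. Both groups of a library share its free RNA. UMIs were summed per library and group, giving 6 sums of 878683 to 1405904 UMIs. These were tested with edgeR 4.0.16 (R 4.3.3), with TMM scaling, a filter on low counts, the quasi-likelihood test and the library as a block. P-values were adjusted by Benjamini-Hochberg over all genes tested. Called genes have an adjusted p under 0.05 and a log2 fold change of 0.5 or more in size. Standard errors are the fold change divided by the root of the F statistic, and the fit had 2 residual degrees of freedom. On simulated data with 200 changed genes, the script recovered 76% of changes of 1 and 100% of changes of 2 on the log2 scale, with 2 false calls among 8788 genes tested. The changed genes had 20 CPM or more, rose and fell equally often, and had a fixed spread around means shared by all libraries. Far more genes were called in the data, so these figures may not hold there or for genes of lower level. Named are the rule genes and markers, the called members of the lists, and outside the lists the 10 genes with the largest and the 10 with the lowest fold change among those called, at 20 CPM or more in a group and with the same direction in 3 of 3 libraries. Trp53, Fezf2, Crym and Slc17a7 were named after their values were seen. The alternatives were DESeq2 1.42.0 and its size factors, no filter on low counts, a fold limit of 1, each library left out, no block, unmatched reference nuclei, thinning to 5000 UMIs, other limits on Tox and the rule sum, doublets left out (Scrublet in Scanpy 1.11.5, with an expected rate of 6%) and total-count scaling.

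The block is the library, from which both groups of a pair of sums come. Barcodes under the limits on genes and mitochondrial UMIs were left out. Some genes of the lists count in the totals and are not reported here by name. Promoter windows came from RefSeq (GRCm38.p6) and gene positions from GENCODE on GRCm38.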

Additional observations from a re-analysis of the deposited data

Results flagged for a closer look

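The log2 fold change of p53-high over reference nuclei differed between Nfib-high and Nfib-low nuclei for 27 of the genes named, leaving out the rule genes and Btk, Creb5 and Ptk2b, which chose or mark the nuclei, tested as an interaction in edgeR over 12 sums (adjusted p under 0.05 and a difference of 0.5 or more in size, called for 9.74% of all genes). Values are the Nfib-high minus the Nfib-low difference on the log2 scale. The Nfib-low p53-high nuclei carried cortical transcripts that the other Nfib-low nuclei had at lower levels, so identity and p53 targets cannot be told apart in these values. Ptk2b, given as a description, had fold changes of 0.57 in Nfib-high and 3.39 in Nfib-low nuclei, a difference of −2.75.

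Among identity genes, Crym was at −3.10, with a fold change of −0.37 in Nfib-high and 2.76 in Nfib-low nuclei. Nfix was at −2.93 (−1.38 and 1.59), Bcl11b at −2.10 (−1.42 and 0.76), Camk2a at −2.07 (−1.21 and 0.95), Slc17a7 at −2.07 (−0.34 and 1.78), Fezf2 at −2.05 (−0.41 and 1.74) and Etv1 at −1.64 (−1.78 and −0.10). Grin2a was at −1.50, Mef2c at −1.39 and Ldb2 at −1.37.

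Of the genes lowest in p53-high cortical nuclei, Kcnh3 was at −3.56, Gm6260 at −3.29, Npr3 at −2.93 and Rspo2 at −2.54. Among synaptic genes Gria3 was at −0.94, Gria1 at −0.62, Nrxn3 at −0.59 and Grin2b at −0.54, while Gria4 was at 1.53, with fold changes of −0.88 and −2.35. Homer1 was at −1.58, Ptk2 at −1.04 and Cdk6 at −2.05, with Cdk6 higher in both kinds of nuclei (2.02 and 4.19).

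More positive in cortical nuclei were Ecel1 at 5.36, Pde3a at 5.13, Nox4 at 4.07, Sytl5 at 3.58 and Bcl2l11 at 2.995. These genes had 0 to 3 UMIs in the Nfib-high reference nuclei, so their fitted values depend on the prior count.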

How the results depend on the processing

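Of 113 named genes called, none turned its direction under any alternative, and between 60 (p53-high nuclei with Tox, where 30 genes could not be tested) and 112 (doublets left out) kept their call. The alternatives reuse the same p53-high nuclei, in whole or in part, so the shared direction is no independent test. The counts of 1514 higher and 1344 lower genes became 934 and 447 at a fold limit of 1, 726 and 677 with DESeq2, 2828 and 2205 with all reference nuclei unmatched, 667 and 634 with the p53-high nuclei that held Tox, and 2565 and 658 with total-count scaling. The unmatched sums hold more nuclei and the Tox sums fewer. At a rule sum of 400 CPM or more, 115 nuclei gave 1223 higher and 1250 lower genes, while the Tox counts came from 111 nuclei. The cause of the changes with DESeq2, with unmatched reference nuclei and with Tox was not tested. Leaving out a library gave 938 to 1894 higher and 822 to 1431 lower genes, lowest without replicate 3 and highest without replicate 2. Without the replicate block the counts were 1084 and 924. The held-out Ccng1 ranged from 0.89 to 1.30 without 1 library and lost its call without replicate 3.

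The interaction count of 1121 genes became 620 with no replicate block and 2796 with unmatched reference nuclei, and 394 (without replicate 3) to 1073 (without replicate 2) with a library left out. The mean share of p53-high nuclei was 2.55% after thinning to 5000 UMIs, where the limit in UMIs makes the rule stricter, and 3.80% to 6.36% with a library left out. With 215 nuclei a group, genes of few UMIs could not be tested.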

Other observations

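The 16 Nfib-high nuclei that met the limit on the 5 genes but had Hspa8 at 600 CPM or more, which the rule leaves out, came from replicates 1, 2 and 3 as 9, 1 and 6 nuclei. The p53-high nuclei had a median of 13249 UMIs and the 16 nuclei one of 4538 UMIs. Ddit3, the gene of CHOP, averaged 40.8 ± 13 CPM in the p53-high nuclei and 245 ± 50.7 CPM in the 16 nuclei (SD, n = 3 libraries). Atf3 averaged 37.1 ± 9.0 CPM in the p53-high nuclei and 151.5 ± 47.6 CPM in the 16 nuclei. Among p53 targets, Cdkn1a averaged 30.4 ± 11.9 CPM in the p53-high nuclei and 117 ± 104 CPM in the 16 nuclei, Apaf1 169 ± 38.0 and 221 ± 106 CPM, and Polk 119.9 ± 24.0 and 33.3 ± 57.7 CPM. Mdm2, a gene of the rule, averaged 309 ± 30.5 CPM in the p53-high nuclei and 1251 ± 869 CPM in the 16 nuclei. Replicate 2 gave a single nucleus, so these are values with no test.

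Within the p53-high nuclei, those without Tox at 300 CPM had Btk at 477 ± 180 CPM, Cenpf at 299 ± 137 CPM and Scn1a at 109 ± 12.7 CPM. Those with Tox had Btk at 195 ± 119 CPM, Cenpf at 75.7 ± 43.6 CPM and Scn1a at 229.9 ± 27.9 CPM. Cdkn1a lay closer together, at 37.6 ± 19.4 CPM without Tox and 25.4 ± 9.7 CPM with Tox.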
